A study of Homo sapiens with 4 samples.

Results

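The genes described here are 10 genes by which epithelial-mesenchymal transition (EMT) is commonly followed: the epithelial genes CDH1, EPCAM and ESRP1, the mesenchymal genes CDH2, VIM and FN1, and the transcription factors ZEB1, ZEB2, SNAI1 and SNAI2. They were taken by gene name from the 50868 genes of the count files, in which each name was found once, and 9 of the 10 were among the 15222 genes with enough counts to be tested. SNAI2 was the member that did not pass. The RNA was that of A549, a line of human lung adenocarcinoma, in 4 libraries: 2 of control cells and 2 of cells that overexpress USP12, a ubiquitin-specific protease. The study expressed tagged human USP12 from a lentiviral vector, the comparison cells are labelled control and called vector control (EV) in the study, and whether the cells were clones or pools is not stated. All 4 libraries are of the same line, and nothing in the labels says that replicates were separate cultures, so p-values measure only the spread between these libraries.

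EMT is the change by which cells of an epithelium loosen their junctions, lose apical-basal polarity and take on the shape and motility of mesenchymal cells. Transcription factors of the SNAI and ZEB families bind E-boxes in the DNA and repress epithelial genes such as CDH1, while N-cadherin, vimentin and fibronectin are gained. In carcinoma the change is often partial, and lung adenocarcinoma lines can carry epithelial and mesenchymal transcripts in the same culture.

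The libraries held between 14280081 and 16305356 counts, so that 3 counts, taken as the floor, correspond to 0.166 to 0.227 CPM (counts per unit of library size, after edgeR's TMM scaling; the floor covers counting error only). USP12 itself was at 1745 and 2235 CPM where the labels name it as overexpressed, against 15.2 and 34.4 CPM in the controls. The control libraries stood apart from each other more than the USP12 libraries did, with an SD of the log2 ratio over the tested genes of 1.32 against 0.618. Pairs of a control and a USP12 library had SDs from 1.01 to 1.31, so the controls differed at least as much as libraries of different groups. In the column headings, control replicate 1 has a different date-like prefix from the other 3. That prefix covers 1 library, so what it stands for cannot be told apart from that library, and the comparison within 1 prefix is the one without control replicate 1. Of 8 genes that mark A549 cells, including keratins and aldo-keto reductases, all were tested and none had an unadjusted p under 0.05. Their summed level was 23400 and 17900 CPM in the control libraries against 19400 and 18200 CPM in the USP12 libraries. Among them, KRT7, KRT8 and KRT18 are also counted in the epithelial list below. For KRT8 and KRT18 both USP12 libraries were below both controls, while KRT7 overlapped between the groups.

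With edgeR's quasi-likelihood test and Benjamini-Hochberg adjustment over all 15222 genes, 0 members and 0 genes in all (0%) had an adjusted p under 0.05. The smallest adjusted p by this test was 0.0975, and USP12 itself had that value at a log2 fold change of 6.32. The overexpressed gene was thus not called either, so the lack of calls says little about the members. At an unadjusted p under 0.05 there were 1155 genes (7.59%), of which 2 were members. Over all genes, DESeq2's Wald test called 277 lower and 133 higher and edgeR's exact test 250 and 160, and neither called a member. A permutation of 2 libraries against 2 cannot give a two-sided p under 0.333. The study called genes down at a p up to 0.05 with a log2 fold change of -1 or below, here read as the unadjusted p and mirrored for higher genes. By this criterion ESRP1 was lower, against 4.41% of all genes tested, and ZEB2 was higher, against 2.92%. ESRP1 passed the filter on low counts through the control libraries only, so its call and its lack of overlap rest on that selection. In 6 of the 9 members tested the groups did not overlap, which held for 36.5% of all genes: EPCAM, ESRP1 and ZEB1 were lower in both USP12 libraries (17% of all genes), and CDH2, VIM and ZEB2 were higher (19.5%). The ZEB genes, which encode repressors of the same family, thus lay on opposite sides of the control range. In RNA of whole cultures, fewer cells with a transcript and less of it per cell cannot be told apart.

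The promoters are shown for those members whose groups did not overlap and whose start is in RefSeq's GRCh38.p14 table, VIM, CDH2, ZEB1 and ZEB2, because the E-box is the letter motif through which the ZEB and SNAI proteins read DNA. The general E-box CANNTG and its ZEB and SNAI form CACCTG, which is one case of CANNTG, were searched on both strands, so that CAGGTG counts as CACCTG. Over all 35116 promoter windows of the same 250 bases before a start, 61.8% held CANNTG and 17.5% held CACCTG. The sequences run 5′ to 3′ on the gene's own strand, with E-boxes in capitals.
VIM, chr10:17227991-17228240, plus strand: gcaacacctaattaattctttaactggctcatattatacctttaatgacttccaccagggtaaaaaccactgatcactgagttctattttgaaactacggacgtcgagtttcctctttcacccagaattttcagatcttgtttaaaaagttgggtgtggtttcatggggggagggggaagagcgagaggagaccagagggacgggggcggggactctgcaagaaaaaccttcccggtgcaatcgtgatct
CDH2, chr18:28177131-28177380, minus strand: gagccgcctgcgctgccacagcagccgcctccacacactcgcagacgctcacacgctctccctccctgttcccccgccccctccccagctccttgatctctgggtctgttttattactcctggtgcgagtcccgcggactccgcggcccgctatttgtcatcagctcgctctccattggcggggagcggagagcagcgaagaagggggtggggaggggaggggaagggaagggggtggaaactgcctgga
ZEB1, chr10:31318167-31318416, plus strand: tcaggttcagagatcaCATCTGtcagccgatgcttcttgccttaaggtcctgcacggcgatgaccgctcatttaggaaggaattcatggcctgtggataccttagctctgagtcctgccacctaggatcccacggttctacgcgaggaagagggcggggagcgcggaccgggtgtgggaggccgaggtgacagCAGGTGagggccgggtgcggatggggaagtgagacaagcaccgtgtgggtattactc
ZEB2, chr2:144520282-144520311, minus strand: cgatcacgttttCACATGatgctcacgctc
The VIM window and the CDH2 window held no CANNTG. The CDH2 window lies inside the span that GENCODE gives the gene but over none of its exons, and a second RefSeq start of CDH2 has 1 CANNTG, 97 bases before it. The ZEB1 window, before the first of its RefSeq starts, held CATCTG beginning 234 bases and CAGGTG beginning 57 bases before the start. Of the 7 ZEB1 windows in the table, 3 held no CANNTG and 2 held CACCTG. The window of the first start is the one shown. For ZEB2 only 30 bases are printed, around the single CANNTG of its window, 180 bases before the start, because the window runs over exons annotated to the gene. A match is a run of letters and not a measured site, and a window without one says nothing of the factors.

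CDH1 (ENSG00000039068, chromosome 16, 68737292 to 68835537, plus strand of GRCh38) encodes E-cadherin, the calcium-dependent adhesion protein of adherens junctions whose loss is the classical sign of EMT. It had 130.4 and 99.1 CPM in control replicates 1 and 2, and 76.5 and 134 CPM in USP12 replicates 1 and 2. The lowest and the highest value were both in USP12 libraries, so the groups overlapped. Its log2 fold change, USP12 over control, was -0.13 (SE 0.42, 95% interval -1.15 to 0.90), with an adjusted p of 0.981 by edgeR's quasi-likelihood test. The interval is wide enough to hold a halving of the level, so these libraries leave a change of that size possible.

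EPCAM (ENSG00000119888, chromosome 2, 47345158 to 47387601, plus strand) encodes an epithelial cell adhesion molecule carried by most carcinomas. It stood at 28.5 and 14.1 CPM in the controls and at 11.01 and 9.70 CPM with USP12. Both USP12 libraries were below both controls, although control replicate 2 was nearer to them than to control replicate 1. The log2 fold change was -1.04 (SE 0.52, 95% interval -2.30 to 0.23; edgeR adjusted p = 0.781).

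ESRP1 (ENSG00000104413, chromosome 8, 94641074 to 94707466, plus strand) encodes a splicing regulator that keeps epithelial isoforms of genes such as FGFR2 and CD44. Its counts were 45 and 21 in the controls and 4 and 7 in the USP12 libraries, or 3.41 and 1.16 CPM against 0.288 and 0.485 CPM. The gene was near the floor in the USP12 libraries and low in the controls too. Its log2 fold change was -2.53 (SE 0.92, 95% interval -4.76 to -0.29), with an unadjusted p of 0.0324 and an adjusted p of 0.564 by edgeR's quasi-likelihood test. ESRP1 passed the filter on low counts through the control libraries only, where it was higher. With a filter of at least 10 counts in every library it was not tested.

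CDH2 (ENSG00000170558, chromosome 18, 27932879 to 28177946, minus strand) encodes N-cadherin, which replaces or joins E-cadherin at the cell surface in mesenchymal cells. It had 29.9 CPM in control replicate 1 but 3.82 CPM in control replicate 2, and 36.1 and 52.9 CPM with USP12. Both USP12 libraries were above both controls, and control replicate 1 lay close to USP12 replicate 1. The controls differed by 2.92 in log2 CPM, more than the log2 fold change of 1.40 (SE 0.90, 95% interval -0.79 to 3.60; edgeR adjusted p = 0.865). Against control replicate 2 alone the log2 fold change was 3.54 (adjusted p = 0.00261 in edgeR's fit without control replicate 1), and against control replicate 1 alone it was 0.60.

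VIM (ENSG00000026025, chromosome 10, 17228241 to 17237593, plus strand) encodes vimentin, the intermediate filament protein of mesenchymal cells. The controls held 851 and 650.2 CPM of it, and the USP12 libraries 1255 and 1045 CPM. All 4 libraries held it at a high level, and the USP12 libraries were the 2 highest. The log2 fold change was 0.62 (SE 0.32, 95% interval -0.17 to 1.41; edgeR adjusted p = 0.806), the smallest SE among the members. With each library left out it was between 0.46 and 0.83, and its positive sign was largely fixed by the lack of overlap.

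FN1 (ENSG00000115414, chromosome 2, 215360440 to 215436073, minus strand) encodes fibronectin, a glycoprotein of the extracellular matrix. Its levels were 1841 and 806 CPM in the controls and 1055 and 1152 CPM with USP12, so both USP12 values lay between the controls. The log2 fold change of -0.26 (SE 0.45, 95% interval -1.34 to 0.82; edgeR adjusted p = 0.964) took the opposite sign, 0.46, without control replicate 1. Without control replicate 2 it was -0.71, with an edgeR adjusted p of 0.0326.

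ZEB1 (ENSG00000148516, chromosome 10, 31318495 to 31529814, plus strand) encodes a zinc finger repressor of CDH1 and of the miR-200 genes. It had 9.76 and 17.8 CPM in the controls and 7.56 and 9.49 CPM with USP12. The USP12 libraries were the 2 lowest, but USP12 replicate 2 lay close to control replicate 1. The log2 fold change was -0.69 (SE 0.52, 95% interval -1.95 to 0.56; edgeR adjusted p = 0.898), and -0.17 without control replicate 2. ZEB1-AS1, on the opposite strand, had 17 and 42 counts in the controls and 36 and 45 in the USP12 libraries. Whether the counting kept the strands apart is not stated.

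ZEB2 (ENSG00000169554, chromosome 2, 144364364 to 144521057, minus strand) encodes the second repressor of the family, also called SIP1. Its counts were 30 and 10 in the controls and 65 and 101 in the USP12 libraries, or 2.27 and 0.554 CPM against 4.68 and 7.0 CPM. Both USP12 libraries were above both controls at a low level. The log2 fold change was 2.06 (SE 0.82, 95% interval 0.07 to 4.06), with an unadjusted p of 0.0449 and an adjusted p of 0.637 by edgeR's quasi-likelihood test. It was 3.38 without control replicate 1 (edgeR adjusted p = 0.0158) and 1.39 without control replicate 2 (edgeR adjusted p = 0.0637). ZEB2-AS1, on the opposite strand, had no more than 1 count in any library.

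SNAI1 (ENSG00000124216, chromosome 20, 49982980 to 49988886, plus strand) encodes Snail, a short-lived zinc finger repressor of CDH1. It had 6.36 and 2.16 CPM in the controls and 4.32 and 6.23 CPM in the USP12 libraries, so both USP12 values lay within the control range. The log2 fold change was 0.32 (SE 0.69, 95% interval -1.37 to 2.00; edgeR adjusted p = 0.972), and -0.24 without control replicate 2.

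SNAI2 (ENSG00000019549, chromosome 8, 48917598 to 48921740, minus strand) encodes Slug, the paralogue of Snail. It had 0 and 2 counts in the controls and 8 and 6 in the USP12 libraries, too few for the filter. Summed over the libraries of each group, 14 counts against 2 gave a ratio of 7.72, with an exact 95% interval of 1.77 to 70 that covers counting error only and no spread between libraries. The transcript was thus at or under the floor of 3 counts in both controls and above it in both USP12 libraries.

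**Figure D1:**
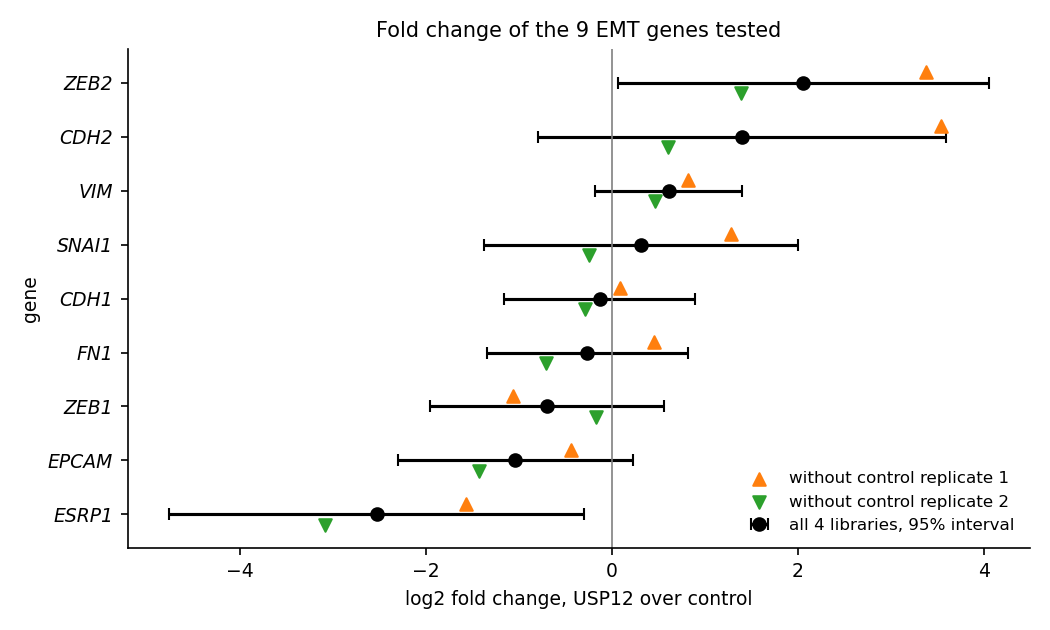
Log2 fold change, USP12 over control, of the 9 members tested, with the 95% interval of edgeR's fit (black), and the same value without control replicate 1 (orange triangle, up) or without control replicate 2 (green triangle, down). ESRP1 and ZEB2 have intervals that leave out 0, and CDH1, FN1 and SNAI1 change sign with the control used. ESRP1 passed the filter on low counts through the control libraries only.

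The members' fold changes moved with the control used. Control replicate 1 exceeded control replicate 2 for 8 of the 9 members tested, all but ZEB1, with a median log2 difference of 1.19. The same median over all genes was not counted, so this is not read as particular to the members. Among the lists of the programme below, it ranged from -0.69 (other cadherins) to 1.39 (mesenchymal). Without control replicate 1, CDH2 and ZEB2 were higher at an edgeR adjusted p under 0.05, as were 4.73% of the genes tested. In the same edgeR fit EPCAM was at -0.44 (adjusted p = 0.348) and ESRP1 at -1.57 (adjusted p = 0.346). Without control replicate 2, EPCAM (log2 fold change -1.43, adjusted p = 0.0115), ESRP1 (-3.08, adjusted p = 0.0242) and FN1 were lower in edgeR's fit, as were 16.3% of the genes tested. In these fits the single control is assumed to vary like the USP12 libraries, which were the closer pair. No member had an adjusted p under 0.05 in both fits.

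**Figure D2:**
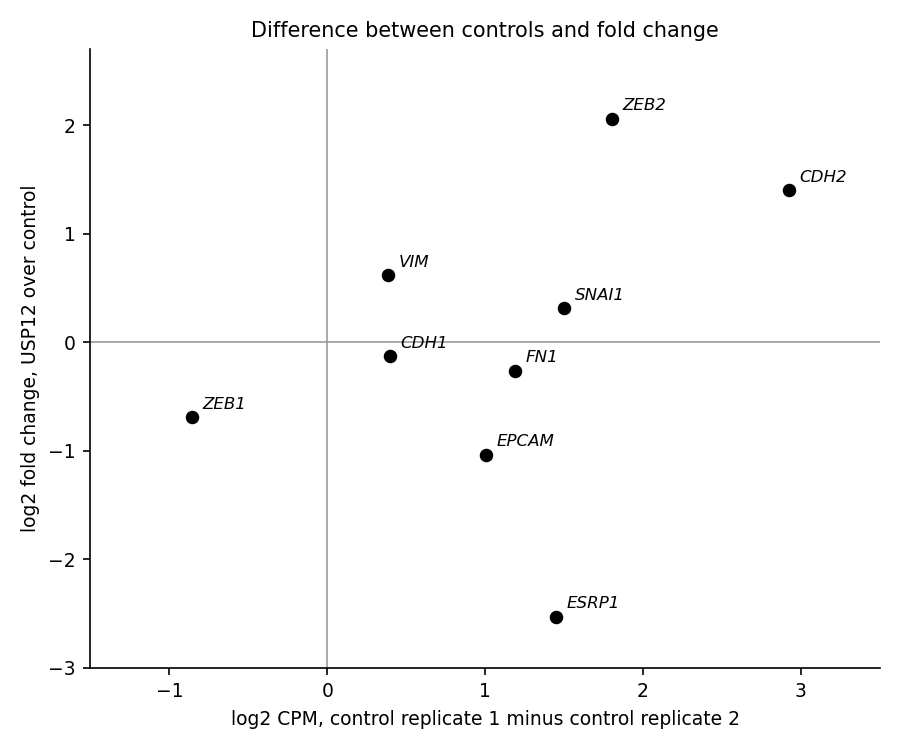
Log2 fold change of each tested member, USP12 over control (vertical), against the log2 CPM difference between control replicates 1 and 2 (horizontal). Both axes use the control libraries and are not independent; CDH2, with a control difference of 2.92, lies farthest to the right, and ZEB1 alone lies to the left of 0.

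Per kilobase of merged exons, VIM and FN1 were the most abundant members in all 4 libraries and SNAI2 and ZEB2 were among the least. VIM had 145 ± 27.5 CPM per kb in the controls and 222 ± 28.7 in the USP12 libraries, and FN1 had 76.9 ± 42.5 and 64.1 ± 3.98 (mean ± SD, n = 2). CDH1 followed with 18.9 ± 3.64 and 17.3 ± 6.67, then EPCAM with 8.75 ± 4.18 and 4.26 ± 0.382. In the controls SNAI1 (2.5 ± 1.74), CDH2 (1.96 ± 2.15) and ZEB1 (1.59 ± 0.656) lay within each other's spread. The USP12 libraries put CDH2 at 5.18 ± 1.38, next to EPCAM, SNAI1 at 3.09 ± 0.794 and ZEB1 at 0.985 ± 0.158. The lowest were ESRP1, with 0.469 ± 0.325 CPM per kb in the controls and 0.0793 ± 0.0286 in the USP12 libraries, ZEB2, with 0.054 ± 0.0464 and 0.223 ± 0.0627, and SNAI2, with 0.0169 ± 0.0239 and 0.151 ± 0.0345. ESRP1 was the highest of these 3 in the controls and the lowest in the USP12 libraries. On the same scale CDH2 stood at 16.2% and 2.73% of CDH1 in the controls and at 33.4% and 28.0% in the USP12 libraries, so E-cadherin transcripts exceeded N-cadherin transcripts in every library and the share was highest in both USP12 libraries. With the longest transcript as the length the shares were 27.5% and 4.62% in the controls and 56.6% and 47.3% in the USP12 libraries, and CDH2 (11.1 CPM per kb) stood above EPCAM (6.69) in the latter. That length also raised VIM to 282 and 431 CPM per kb, FN1 to 144 and 120 and ZEB2 to 0.147 and 0.609, in controls and USP12 libraries.

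Lists of other genes of the programme were set beside the members, as counts and medians. Over all genes tested the median log2 fold change was -0.06 and 53.6% were lower in point estimate. The lists below name by rule the genes with the smallest p in each direction, and none of them had an adjusted p under 0.05. The genes so named kept their direction with each library left out. The groups did not overlap in any of them, so this was largely fixed in advance.

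Of 5 catenins and partners that tie cadherins to actin, 4 were higher in point estimate, with a median log2 fold change of 0.74. CTNND1, or p120-catenin, which holds cadherins at the membrane, was at 89.7 and 119 CPM in the controls and 207.5 and 302 CPM with USP12. Its log2 fold change was 1.29 (SE 0.39, edgeR adjusted p = 0.426). It was the only one of the 5 with an unadjusted p under 0.05, against 7.59% of all genes.

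Of 7 other cadherins, 4 were tested and the groups did not overlap in any of the 4 (36.5% of all genes). CDH6, which passed the filter on low counts through the USP12 libraries only, a cadherin of kidney and neural crest, had 0 and 4 counts in the controls and 227 and 202 counts in the USP12 libraries (log2 fold change 6.86, SE 1.00, edgeR adjusted p = 0.166). CDH4, or R-cadherin, had 5.45 and 2.60 CPM against 44.3 and 57.5 CPM (3.66, SE 0.56, edgeR adjusted p = 0.182). CDH17, the liver-intestine cadherin, had 124 and 122 CPM against 27.6 and 26.6 CPM (-2.18, SE 0.36, edgeR adjusted p = 0.183). CDH3, or P-cadherin, was not tested, with 101 and 5 counts in the controls and 8 and 1 in the USP12 libraries. Among the cadherins listed and tested, members included, only CDH1 overlapped between the groups.

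Of 27 epithelial junction, keratin and polarity genes found in the files, 23 were tested, and 20 of these were lower in point estimate, with a median of -0.90. In 13 of the 23 both USP12 libraries were below both controls (17% of all genes), and in 1 above (19.5%). MAL2, 1 of the 13, passed the filter on low counts through the control libraries only (17 and 14 counts against 6 and 7). Unadjusted p-values were under 0.05 for 6 (7.59% of all genes in either direction), all lower: TJP3, CLDN7, CGN, KRT19, LSR and ERBB3. TJP3, the tight junction scaffold ZO-3, had 147 and 73.9 CPM in the controls against 18.6 and 18.6 CPM with USP12 (log2 fold change -2.57, SE 0.48, edgeR adjusted p = 0.21). CLDN7, a claudin that binds EPCAM, had 3.03 and 5.6 CPM against 0.36 and 0.693 CPM (-3.02, SE 0.77, edgeR adjusted p = 0.332). The list's genes were themselves higher in control replicate 1 than in control replicate 2, by a median log2 of 0.86. Without control replicate 1, 17 of the 23 were lower, with a median of -0.34. Without control replicate 2, 20 were lower, with a median of -1.18.

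Of 8 epithelial transcription factors tested, 7 were lower in point estimate, with a median of -1.02, and in each of these 7 both USP12 libraries were below both controls (17% of all genes). GRHL1, 1 of the 7, passed the filter on low counts through the control libraries only (10 and 16 counts against 1 and 5). EHF, an ETS factor of epithelia, had 32.7 and 51.7 CPM in the controls and 3.46 and 5.33 CPM with USP12 (log2 fold change -3.26, SE 0.53, edgeR adjusted p = 0.182). GRHL3, a grainyhead factor of barrier formation, had 157 and 25.9 CPM against 8.13 and 7.69 CPM (-3.53, SE 0.87, edgeR adjusted p = 0.32; -1.71 without control replicate 1). FOXA2 was the one above both controls. GRHL2 and ESRP2, which support the epithelial state elsewhere, had no more than 6 counts in any library. This list kept 7 lower of 8 with each library left out, which the lack of overlap largely fixed in advance.

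Of 9 further EMT transcription factors tested, 6 were lower in point estimate, with a median of -0.32. SOX9 had 94.7 and 96.6 CPM in the controls and 37.7 and 45.0 CPM with USP12 (log2 fold change -1.21, SE 0.36, edgeR adjusted p = 0.426). TCF4, the E-protein E2-2, had 7.79 and 23.5 CPM against 4.25 and 4.57 CPM (-1.83, SE 0.66, edgeR adjusted p = 0.554; -0.79 without control replicate 2). The TWIST genes overlapped between the groups, TWIST1 with a log2 fold change of 0.41 (-0.06 without control replicate 2) and TWIST2 with -0.11 (0.95 without control replicate 1). The 10 corepressors through which ZEB and SNAI proteins act, such as CtBP, histone deacetylases and polycomb subunits, had a median of 0.12, and none had an unadjusted p under 0.05. HDAC2 had the smallest p among them (log2 fold change 0.75, SE 0.41, edgeR adjusted p = 0.817).

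Of 24 mesenchymal matrix, cytoskeletal and protease genes tested, 14 were higher and 10 lower in point estimate, with a median of 0.48. In 13 of the 24 both USP12 libraries were above both controls (19.5% of all genes), and in 5 below (17%). Unadjusted p-values were under 0.05 for 5 higher genes, SPOCK1, TGFBI, VCAN, COL5A1 and MMP2, and for 2 lower ones, PLAUR and COL5A2. Over all genes tested, 7.59% had such a p in either direction. SPOCK1, a secreted proteoglycan, had 2.04 and 0.388 CPM in the controls and 25.6 and 22.9 CPM with USP12 (log2 fold change 4.34, SE 0.84, edgeR adjusted p = 0.224). TGFBI, a matrix protein induced by TGF-beta, had 518 and 286 CPM against 1088 and 1147 CPM (1.48, SE 0.39, edgeR adjusted p = 0.352). PLAUR, the urokinase receptor, had 171 and 52.9 CPM against 29.2 and 22.5 CPM (-2.11, SE 0.62, edgeR adjusted p = 0.418; -1.03 without control replicate 1). COL5A2, a fibrillar collagen chain, had 562 and 399 CPM against 205 and 226 CPM (-1.16, SE 0.35, edgeR adjusted p = 0.429), while COL5A1, its partner chain, was higher by a log2 of 2.06. Without control replicate 1, 20 of 26 genes tested were higher, with a median of 1.18, and without control replicate 2, 14 of 26, with a median of 0.21.

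Beside FN1, 5 of the 8 fibronectin receptors tested were lower, with a median of -0.32. SDC4, syndecan-4, had 69.7 and 48.8 CPM in the controls and 25.8 and 22.2 CPM with USP12 (log2 fold change -1.31, SE 0.41, edgeR adjusted p = 0.457). ITGB6, the beta chain of the epithelial integrin that binds fibronectin and latent TGF-beta, had 1 and 12 counts against 40 and 46 counts (2.95, SE 1.01, edgeR adjusted p = 0.513). ITGA5, the alpha chain of the classical fibronectin receptor, overlapped between the groups, with a log2 fold change of -0.76 that turned to 0.62 without control replicate 1.

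TGF-beta signalling is a well-known inducer of EMT, and 9 of its 10 genes listed were higher in point estimate, with a median of 0.53. TGFB2, a TGF-beta ligand, had 24.5 and 22.2 CPM in the controls and 90.6 and 96.8 CPM with USP12 (log2 fold change 2.00, SE 0.37, edgeR adjusted p = 0.21). SMAD7, the feedback inhibitor of the pathway, had 11.4 and 8.15 CPM against 22.2 and 24.8 CPM (1.26, SE 0.45, edgeR adjusted p = 0.554). Both controls agreed closely for TGFB2, unlike for TGFB1, which had 515.5 and 91.8 CPM in the controls and 511 and 436 CPM in the USP12 libraries, and whose log2 fold change of 0.64 was -0.10 without control replicate 2. Without control replicate 1 the list was higher for 6 of 10.

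Markers of other cells were also read. Of 6 fibroblast markers 2 were tested, their summed level was 18.0 and 3.10 CPM in the controls and 21.2 and 17.1 CPM in the USP12 libraries, DCN was at 0 in every library, and PDGFRB had 0 and 0 counts against 6 and 11. COL1A1, which made up most of that sum, is also in the mesenchymal list. Of 5 endothelial markers, VWF, KDR and TEK had no more than 3 counts in any library. The other two were lower in the USP12 libraries: CDH5, or VE-cadherin, with 136 and 96 counts against 2 and 5 (log2 fold change -4.94, edgeR adjusted p = 0.182), and PECAM1 with 68 and 56 counts against 4 and 14. Leukocyte markers summed to 44.6 and 9.59 CPM against 16.1 and 15.3 CPM, with PTPRC at no more than 1 count and CD3E at 0 in every library. Of the 4 leukocyte markers tested, CD14 had 424 and 85 counts in the controls and 185 and 174 with USP12, ITGAM 143 and 43 against 23 and 31, and LYZ 11 and 27 against 1 and 3 (log2 fold change -2.98, unadjusted p = 0.0265, edgeR adjusted p = 0.521), while CD79A had between 12 and 17 counts in every library. CDH5 and LYZ passed the filter on low counts through the control libraries only. The part of other cells in the results was not tested.

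The genes whose pattern over the 4 libraries was nearest to each member were found by the root mean square difference of log2 CPM, each gene centred on its own mean. They were UNC45A for FN1 (0.016), TSPAN4 for EPCAM (0.019), HSPB11 for VIM (0.025), PBLD for ZEB1 (0.028), LRRC75B for SNAI1 (0.041), MKLN1-AS for CDH1 (0.047), COL15A1 for ZEB2 (0.106), ARSI for CDH2 (0.131) and PDZD7 for ESRP1 (0.159). Over only 4 libraries a pattern is shared by many genes for some members: 142 tested genes lay within 0.1 of FN1, 55 of EPCAM, 48 of VIM and 33 of ZEB1. For CDH2, ZEB2 and ESRP1 there were 0 genes within that distance.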

How the data were processed

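The authors prepared stranded mRNA libraries, trimmed adaptors and removed ribosomal RNA reads with Seqtk, mapped to GRCh38 and deposited raw counts of uniquely mapped fragments per gene, without normalization. The submitters' processing notes name HISAT2 2.0.4 and StringTie 1.3.0. Neither the annotation release nor whether strand was used is given in the sources used here. Depth was 14280081 to 16305356 counts per library.

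Counts were filtered (filterByExpr), TMM-scaled and tested in R 4.3.3 with edgeR 4.0.16 (quasi-likelihood test, legacy = TRUE), adjusted over all 15222 genes. SEs derive from the fold change and the F statistic and are approximate. Log2 CPM used a prior count of 2. The scripts were tested on simulated counts. Gene positions and lengths came from GENCODE 44 (99.2% of tested genes found by identifier), promoter sequence from RefSeq (GRCh38.p14).

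All members are named, and from each list the up to 2 lower and 2 higher genes with the smallest p under 0.05, otherwise the 1 with the smallest p, plus the nearest pattern of each member. CDH3, COL5A1, single markers of other cells, ITGA5, TGFB1, FOXA2, GRHL1, GRHL2, ESRP2, MAL2, the TWIST genes and the other genes named with a p under 0.05 were added after their values were seen. PATJ, MIR200CHG and TBXT were not matched by name. Members and lists were chosen with earlier results of these data known.

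Alternatives were DESeq2's (1.42.0) size factors and Wald test, 2 other filters, edgeR's exact test, legacy = FALSE, a replicate block, leaving out each library and, for lengths, the longest transcript. Leaving out libraries for the lists was added after seeing the data.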

Additional observations from a re-analysis of the deposited data

How the results depend on the processing

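The limits lie in 2 libraries per group and in controls that differ more than the USP12 libraries. Low counts limit ESRP1, ZEB2 and SNAI2. Among 98 values of the members' fold changes under the alternatives, 89 kept their direction and their side of the threshold. With each library left out, CDH1 ranged from -0.58 to 0.24 (reversed to 0.09 without control replicate 1 and to 0.24 without USP12 replicate 1), FN1 from -0.71 to 0.46 (reversed without control replicate 1) and SNAI1 from -0.24 to 1.29 (reversed without control replicate 2), and 5 passed the threshold only when a control was left out. SNAI2 could be fitted only without a filter (2.90). Without a filter, edgeR's adjusted p was under 0.05 for 361 lower and 167 higher genes, 1173 and 688 by the study's criterion, and 2 members were higher by it. With at least 10 counts in every library 521 genes were lower by it, 0 of them members, as ESRP1 was not tested. DESeq2's Wald test gave 277 lower and 133 higher genes and edgeR's exact test 250 and 160. The cause was not tested, except that the fits without a filter, with the block and without a USP12 library had infinite prior degrees of freedom (4.15 in the fit reported) and used no spread of the single gene.

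Same-numbered libraries deviated together only weakly (correlation over genes 0.152), and with 2 pairs the numbers do not pair the libraries. With the replicate number as a block, edgeR's adjusted p was under 0.05 for 251 lower and 153 higher genes, 0 of them members. By the study's criterion 717 of the 15222 genes were lower and 575 higher. Of the members 1 was lower by it and 2, CDH2 (2.00) and ZEB2 (2.28), were higher.

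With each library left out, genes at an adjusted p under 0.05 ranged from 28 to 2612 (lower) and 12 to 2550 (higher), and by the criterion from 300 to 2134 and 159 to 2495. Both maxima of each came without control replicate 2. Members without overlap ranged from 3 to 5 in each direction. Lack of overlap is easier to reach with a library left out, and its share over all genes was not counted there. These counts are therefore not read as a result about the members. List medians ranged from 0.06 to 2.52 (other cadherins), -1.37 to -0.88 (epithelial regulators), -0.48 to -0.26 (EMT factors), 0.10 to 0.32 (corepressors), -0.52 to 0.30 (fibronectin receptors) and 0.41 to 1.13 (TGF-beta), and genes lower in point estimate from 1 to 2 (catenins), 1 to 3 (other cadherins), 6 to 12 (mesenchymal) and 1 to 4 (TGF-beta). The other cadherins moved because 6 rather than 4 were tested in all but the fit without control replicate 1.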
